A study of Homo sapiens with 12 samples.

Results

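The long arm of human chromosome 12 between 115 and 130 Mb (hg38, chr12:115000001-130000000) is a 15-Mb stretch in which H2A.Z regions that differed between K562 cells with WT EP400 and with EP400 ΔTRRAP were almost all lower in ΔTRRAP. It holds 948 of the 158028 regions in 6 lists, counting a region where its midpoint lies between these bounds. H2A.Z accounts for 412 of them and acetylated H2A.Z (H2A.Zac) for 536. The stretch was chosen by the share of gained among changed regions in 3 adjoining windows of 5 Mb, in both marks of this same comparison. The direction of change over the stretch is therefore a description of how it was selected, and no test of it is given.

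K562 is a human chronic myeloid leukemia line that expresses erythroid genes. In the cells used here endogenous EP400 carried a C-terminal degradation tag in homozygous form, and EP400 was expressed again from the AAVS1 locus, either as WT protein or without the part that binds TRRAP (ΔTRRAP). Every culture, WT included, received 500 nM dTAGV-1 for 24 h, which removes the tagged endogenous protein. Each mark was profiled by ChIP-seq in 2 biological replicates per line, with 2 inputs per line, giving 12 libraries. The authors merged the replicates and compared the lines once per mark, so that each region has a single value, a log10 likelihood ratio between the lines ("ratio" below). A region is lost when it was higher in WT with a ratio of at least 3, gained when it was higher in ΔTRRAP by the same threshold, and unchanged otherwise. The lists hold no value per replicate and no depth, so that from them no spread between replicates can be given and no test across conditions made. Intervals of shares are Wilson 95% confidence intervals and cover counting error only, and neighboring regions are not independent of each other. Each line was 1 clone, and input libraries were not analysed here, so that a difference between the 2 clones, in DNA copy number included, and a response to ΔTRRAP cannot be told apart over a stretch of this kind.

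H2A.Z is a variant of histone H2A that is found in nucleosomes beside active promoters and at enhancers. EP400 is the ATPase of the TIP60 complex, which places H2A.Z into nucleosomes, and the complex also carries the acetyltransferase that acetylates histone tails. TRRAP is the large subunit through which the complex meets DNA-bound transcription factors. H2A.Zac at a promoter is commonly found with transcription, whereas H2A.Z without acetylation is also found at genes that are poised or silent.

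Sequences are given for the elements that frame the results. They are 4 promoters with an entry in the RefSeq promoter table (GRCh38.p14) and the strongest changed regions away from promoters. The lost promoters were taken by H2A.Zac ratio from genes lost in both marks, and the gained ones by ratio from genes with a gained region. A window was used only where it held no annotated exon and touched an H2A.Zac region of its class. Some promoters with higher ratios were passed over by these rules. RefSeq promoters were found by symbol for 84 of the 111 protein-coding genes of the stretch. The windows of HRK (chr12:116881442-116881691, minus strand) and BRI3BP (chr12:124993395-124993644, plus strand) lie wholly in lost H2A.Zac regions. Those of MLEC (chr12:120686899-120687148, plus strand) and KMT5A (chr12:123383882-123384131, plus strand) have 179 and 157 of their 250 bases in gained ones. All 4 end at the base before the RefSeq TSS and hold no annotated exon. Capitals mark matches, on either strand, to any of the motifs CACGTG (E-box), TTTCCCGC, TTTCGCGC, TTTGCCGC and TTTGGCGC (E2F), GGGCGG (SP/KLF), CCAAT (NF-Y), AGATAA (bound by GATA factors), CGCATGCG (NRF1) and CCGGAAGT (ETS).
HRK promoter: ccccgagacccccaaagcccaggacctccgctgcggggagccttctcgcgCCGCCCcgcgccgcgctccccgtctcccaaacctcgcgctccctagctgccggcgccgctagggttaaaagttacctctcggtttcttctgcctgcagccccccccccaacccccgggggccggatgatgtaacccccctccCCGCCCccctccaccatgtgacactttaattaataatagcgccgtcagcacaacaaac
BRI3BP promoter: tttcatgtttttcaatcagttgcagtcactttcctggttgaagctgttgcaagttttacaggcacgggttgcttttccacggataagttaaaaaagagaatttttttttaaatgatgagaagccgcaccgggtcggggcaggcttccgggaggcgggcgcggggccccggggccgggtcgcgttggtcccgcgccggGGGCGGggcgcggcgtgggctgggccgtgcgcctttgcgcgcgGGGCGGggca
MLEC promoter: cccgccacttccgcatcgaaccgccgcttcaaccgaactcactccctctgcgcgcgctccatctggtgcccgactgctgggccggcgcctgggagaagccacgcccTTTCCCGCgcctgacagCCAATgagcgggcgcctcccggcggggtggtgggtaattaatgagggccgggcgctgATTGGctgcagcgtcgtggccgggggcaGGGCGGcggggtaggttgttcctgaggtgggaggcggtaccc
KMT5A promoter: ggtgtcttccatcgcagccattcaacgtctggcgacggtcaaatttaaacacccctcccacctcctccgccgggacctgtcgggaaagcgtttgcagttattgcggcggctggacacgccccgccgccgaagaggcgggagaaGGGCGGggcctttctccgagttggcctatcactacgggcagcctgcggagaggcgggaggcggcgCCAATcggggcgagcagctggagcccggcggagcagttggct

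GGGCGG was present in all 4 windows, against 42.6% of the 35116 RefSeq promoters over the same 250 bases. CCAAT was found in those of MLEC and KMT5A and in neither lost promoter, against 32.0% of all promoters. The 4 windows are not read as a contrast between lost and gained promoters. Over 300 bases centered on each H2A.Zac region of the stretch near a TSS, CCAAT was in 22 of 79 lost (27.8%) and 3 of 11 gained ones (27.3%). In the same windows GGGCGG was in 30 of 79 lost (38.0%) and 7 of 11 gained ones (63.6%). The E2F form TTTCCCGC was seen in the MLEC promoter and in 1.39% of all promoters. A match is a run of letters and not a measured site.

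The remaining 3 windows are 300 bases of the plus strand of hg38, centered on the region with the highest ratio of its kind away from TSSs, and they hold no annotated exon. The gained H2A.Zac region is chr12:127459929-127460214 (window chr12:127459922-127460221), in the 2605-kb interval between TMEM132B and TMEM132C. The lost H2A.Zac region is chr12:116301734-116304396 (window chr12:116302916-116303215), 25.4 kb upstream of MED13L. The lost H2A.Z region is chr12:123743064-123743341 (window chr12:123743053-123743352), in intron 9 of ATP6V0A2.
Gained H2A.Zac region: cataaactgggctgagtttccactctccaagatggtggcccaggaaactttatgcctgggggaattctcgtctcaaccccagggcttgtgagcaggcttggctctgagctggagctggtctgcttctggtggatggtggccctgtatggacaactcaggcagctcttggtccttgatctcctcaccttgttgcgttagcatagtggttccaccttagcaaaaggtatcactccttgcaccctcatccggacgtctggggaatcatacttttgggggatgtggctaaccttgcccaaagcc
Lost H2A.Zac region: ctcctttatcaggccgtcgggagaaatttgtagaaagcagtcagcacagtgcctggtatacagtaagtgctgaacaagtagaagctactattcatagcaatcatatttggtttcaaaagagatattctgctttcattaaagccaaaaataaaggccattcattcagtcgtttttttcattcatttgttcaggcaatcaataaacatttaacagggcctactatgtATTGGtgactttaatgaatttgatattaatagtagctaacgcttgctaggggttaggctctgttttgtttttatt
Lost H2A.Z region: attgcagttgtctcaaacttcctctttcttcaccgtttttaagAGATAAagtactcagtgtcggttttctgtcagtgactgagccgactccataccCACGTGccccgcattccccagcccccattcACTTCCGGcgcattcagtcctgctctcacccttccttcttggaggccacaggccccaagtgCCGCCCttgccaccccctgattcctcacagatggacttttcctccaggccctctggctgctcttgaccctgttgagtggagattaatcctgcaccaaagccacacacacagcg

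No motif matched in the gained window and a single CCAAT in the lost H2A.Zac window, against 30.1% of all 62650 distal H2A.Zac windows of this length. The lost H2A.Z window holds the E-box (5.07% of 41026 distal H2A.Z windows), AGATAA (15.5%), GGGCGG (15.9%) and CCGGAAGT (0.799%).

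Loss prevailed in both marks, and more completely in H2A.Z than in its acetylated form. Of the 412 H2A.Z regions 204 were lost, 2 gained and 206 unchanged. Lost regions were thus 49.5% of all (interval 44.7 to 54.3%), where 19.8% of all H2A.Z regions of the genome were lost, and gained regions 0.485%, where 14.1% were gained. Of the 536 H2A.Zac regions 272 were lost, 42 gained and 222 unchanged. The lost share was 50.7% (46.5 to 55.0%) beside 25.9% in the genome, and the gained share 7.84% beside 26.3%. Nothing is read from the distance to these genome values, since the stretch was chosen for it. Among changed regions, gained ones made up 0.971% (0.267 to 3.47%) of H2A.Z and 13.4% (10.1 to 17.6%) of H2A.Zac, against 42.0% and 50.6% in the rest of the genome and 42.9% and 51.4% in the rest of chromosome 12. In length, 149 kb of H2A.Z were lost and 0.583 kb gained, and 281 kb of H2A.Zac were lost and 25.9 kb gained.

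Other one-sided stretches include those on the long arms of chromosomes 20, 19 and 5. They are not all such places, since 93 lost H2A.Z regions also followed each other without a gained one on chromosome 3 (2.23 Mb). Gained regions were 1.55% of changed H2A.Z and 15.9% of changed H2A.Zac regions on 20q from 30 Mb to the end, and 4.97% and 28.4% on 19q from 40 Mb to the end. On 5q between 145 and 165 Mb they were 96.8% and 82.3%, the opposite direction. The stretches on 20q, 19q and 5q were chosen by the same share, and the differences between them were not tested.

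**Figure D1:**
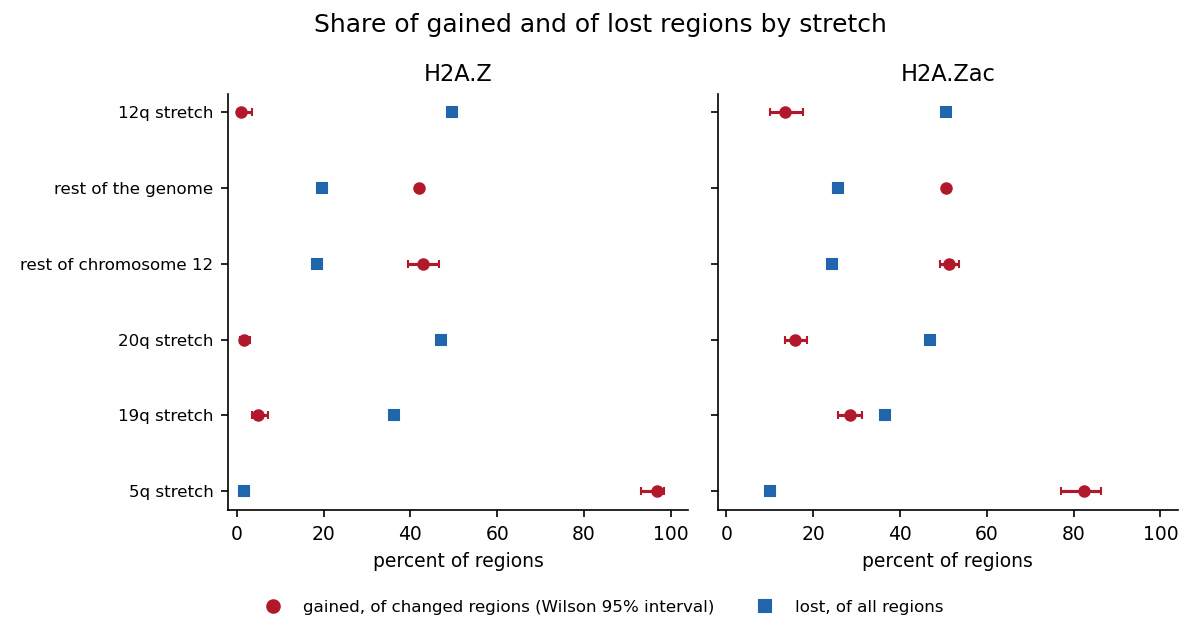
Percent of regions in the 12q stretch, the rest of the genome, the rest of chromosome 12 and 3 other stretches chosen in the same way. Circles are gained regions among changed ones with Wilson 95% intervals, and squares are lost regions among all. In the 12q stretch gained regions were 0.971% of changed H2A.Z and 13.4% of changed H2A.Zac regions.

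Promoters and distal sites were both on the losing side. Within 1 kb of the TSS of any annotated gene, 64 H2A.Z regions were lost, 1 gained and 109 unchanged. Away from TSSs the counts were 140, 1 and 97, so that the lost share was 36.8% (30.0 to 44.2%) near TSSs and 58.8% (52.5 to 64.9%) elsewhere. For H2A.Zac, 79 regions were lost, 11 gained and 102 unchanged near TSSs (lost share 41.1%, 34.4 to 48.2%), and 193, 31 and 120 elsewhere (56.1%, 50.8 to 61.3%). In the rest of the genome the lost share was likewise lower near TSSs, at 9.98% against 24.9% for H2A.Z and 16.5% against 30.5% for H2A.Zac. Of changed regions near TSSs, 1.54% of H2A.Z and 12.2% of H2A.Zac were gained in the stretch, and 59.9% and 64.3% in the rest of the genome.

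Most of the lost H2A.Z lay between protein-coding genes, which is what intergenic means here. Of its 204 lost regions 135 were intergenic, 37 touched an exon and 32 lay in introns, whereas of the 206 unchanged regions 79 were intergenic and 94 touched an exon. The same counts for lost H2A.Zac were 149, 62 and 61. Lost regions were 575 bp (H2A.Z) and 830 bp (H2A.Zac) wide at the median, with a GC content of 51.4% and 50.3%. The median ratio of lost regions was 6.51 for H2A.Z (quartiles 4.90 and 8.84) and 10.1 for H2A.Zac (6.04 and 18.9), beside 5.95 and 8.26 in the rest of the genome. A ratio of 10 or more was held by 35 lost H2A.Z regions and by 140 lost H2A.Zac regions. The ratio is not a fold change.

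Along the stretch, loss was not confined to 1 place. In windows of 1 Mb, gained H2A.Z was absent from 13 of 15 windows and gained H2A.Zac from 4. Lost regions outnumbered gained ones in 14 windows for H2A.Z, the remaining one (115 to 116 Mb) holding 1 unchanged region only, and in all 15 for H2A.Zac. The window at 116 to 117 Mb held 40 lost, 1 gained and 19 unchanged H2A.Z regions and 46, 7 and 22 H2A.Zac regions, with the median lost ratio at 9.45 and 23.2. The window at 121 to 122 Mb, with P2RX7, P2RX4, CAMKK2, KDM2B and SETD1B, held 31 lost H2A.Z regions and 54 lost H2A.Zac regions, the latter the most of the 15 windows. In the gene-poor last 5 Mb, 24 H2A.Z regions were lost and 0 gained of 52, and 23 H2A.Zac regions lost and 6 gained of 59. In the successive windows of 5 Mb, gained H2A.Z made up 1 of 59, 1 of 123 and 0 of 24 changed regions, and gained H2A.Zac 12 of 83, 24 of 202 and 6 of 29.

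**Figure D2:**
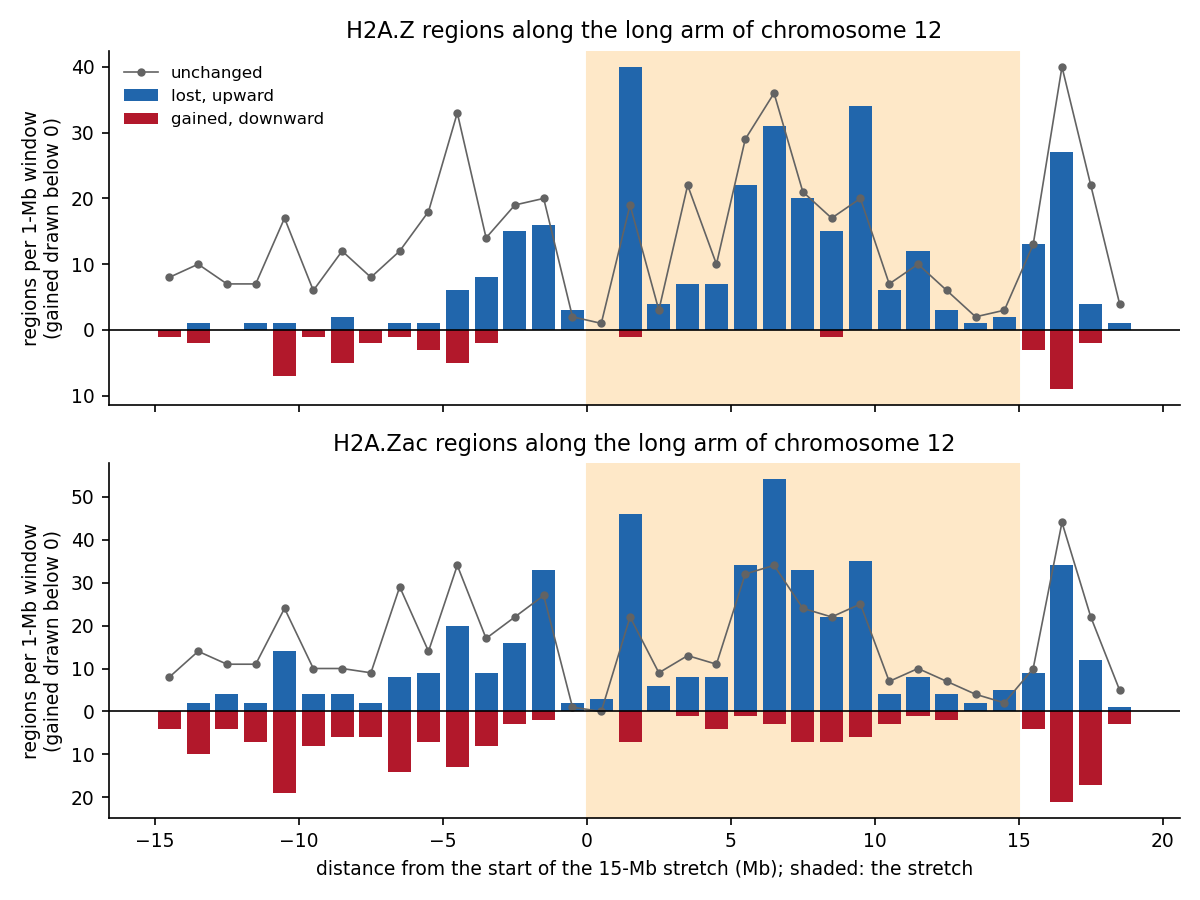
Regions per 1-Mb window from 15 Mb before the stretch to the end of the chromosome, with the distance from its start in Mb. Bars above 0 are lost, bars below 0 gained and points unchanged regions, and the stretch is shaded. Gained H2A.Z was present in 2 of the 15 shaded windows, and the lost counts were highest at 40 (H2A.Z) and 54 (H2A.Zac).

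The loss did not begin and end at these bounds. In the 5 Mb before the stretch, gained regions made up 7 of 55 changed ones for H2A.Z (12.7%) and 26 of 106 for H2A.Zac (24.5%), and in the 10 Mb before that 22 of 29 (75.9%) and 85 of 134 (63.4%). Past 130 Mb, 14 of 59 H2A.Z regions (23.7%) and 45 of 101 H2A.Zac regions (44.6%) were gained. The last H2A.Z region before the start was lost with a ratio of 6.71 and the first inside was unchanged (0.542). The last inside was unchanged (1.52), as was the first past the end (0.447). For H2A.Zac, the regions on either side of each bound were lost, with ratios of 18.3 before and 6.43 inside the start, and of 7.98 inside and 6.06 past the end. Ordered along the chromosome, 96 lost H2A.Z regions followed each other with no gained one between 117045444 and 123374999 (6.33 Mb), the third longest such run in the genome. Runs of 81 and 69 lost regions lay on either side of it, ranking 6 and 7, and both reach past the bounds of the stretch. The longest H2A.Zac run on chromosome 12 held 49 lost regions between the gained regions of MLEC and TMEM120B.

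The densest loss fell in the 270-kb interval without protein-coding genes between MED13L, which encodes a subunit of the Mediator kinase module, and MAP1LC3B2, a paralog of the autophagy gene MAP1LC3B. Here 26 H2A.Z regions were lost, 0 gained and 5 unchanged, and 28 H2A.Zac regions were lost, 1 gained and 8 unchanged. These regions were also strong. Their median lost ratio was 11.0 for H2A.Z and 30.1 for H2A.Zac, and 14 of the 26 and 23 of the 28 had a ratio of 10 or more, against 21 of 178 and 117 of 244 in the remainder of the stretch. The highest lost H2A.Zac ratio of the stretch, 73.3, belongs to the 2663-bp region printed above, whose whole length carried lost H2A.Z (17.0). Elsewhere in the interval, chr12:116290335-116290828 had lost H2A.Zac with a ratio of 46.9 over lost H2A.Z of 21.1, and chr12:116400705-116403101 had 57.4 over 21.2.

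The marks did not always coincide in this interval. Of its 26 lost H2A.Z regions 16 had at least 25% of their length under lost H2A.Zac, and 10 had no H2A.Zac region of any class on them. Among the latter is the region with the highest H2A.Z ratio of the interval, chr12:116372826-116374289 (30.2). In the remainder of the stretch 30 of 178 lost H2A.Z regions were without H2A.Zac. Conversely 12 of the 28 lost H2A.Zac regions here had no H2A.Z region, led by chr12:116433205-116435045 with a ratio of 58.3.

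Of the 48 intervals between protein-coding genes that held a region, 41 had more lost than gained regions over both marks. Gained regions outnumbered lost ones in 2, HRK to FBXW8 (0 lost, 2 gained) and CCDC60 to TMEM233 (0 lost, 1 gained). Another 2, SUDS3 to SRRM4 and CABP1 to MLEC, held 1 lost and 1 gained region each, and 3 held unchanged regions only. Between MAP1LC3B2 and SPRING1, 9 H2A.Z and 8 H2A.Zac regions were lost and 0 gained over 134 kb. Between KDM2B and ORAI1, a calcium channel subunit, 6 and 5 were lost and 0 gained over 45.5 kb. The 2605 kb between TMEM132B and TMEM132C held 15 and 12 lost regions, with 4 gained H2A.Zac regions. In all, 284 of the 476 lost regions of both marks and 16 of the 44 gained ones lay in the 48 intervals.

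The strongest single H2A.Z loss stood apart from that interval. The 278-bp region in intron 9 of ATP6V0A2, a subunit of the vacuolar proton pump, had a ratio of 57.0, above the 30.2 of the next region in the stretch and the 44.4 that was highest elsewhere in the genome. It lies whole within a lost H2A.Zac region of 1487 bp with a ratio of 65.7 (chr12:123742138-123743624), with DNAH10 as the nearest TSS. The promoter of ATP6V0A2 itself was unchanged in both marks, with ratios of 0.531 for H2A.Z and 0.351 for H2A.Zac.

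At promoters, 111 protein-coding genes have their TSS in the stretch. The TSS is the start of the gene record, which can lie away from the first exon of the canonical transcript. A gene was counted as lost or gained where a region of that class lay within 1 kb of its TSS. Of 82 genes with an H2A.Z region there, 45 (54.9%, 44.1 to 65.2%) had a lost one, where 11.2% of such genes in the genome had one, and 1 had a gained one, where 21.6% had one. Of 81 genes with an H2A.Zac region, 55 (67.9%, 57.1 to 77.1%) had a lost one, beside 27.3% in the genome, and 7 (8.64%) a gained one, beside 55.6%. Both marks were lost at 35 genes, both were unchanged at 11, and 25 genes had no listed region of either mark. Several genes share 1 region because the starts of their gene records lie close together, so that the genes are not independent members. Among them are SPRING1 and RNFT2, VSIG10 and PEBP1, TRIAP1 and GATC, RNF10 and COQ5, and ANAPC5 and RNF34. For VSIG10 and COQ5 that start lies away from exon 1 of the canonical transcript.

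Among the 35 genes lost in both marks, the highest H2A.Zac ratios were found at genes of cell death and purinergic signaling, among others. HRK, which encodes a BH3-only protein of the apoptotic pathway, ranked above the others. Its lost H2A.Zac region, chr12:116880566-116882131, spans the TSS at 116881441 with a ratio of 55.9, and lost H2A.Z there had a ratio of 11.0, with an unchanged H2A.Z region (1.86) inside its bounds. DIABLO, a mitochondrial protein that binds inhibitors of apoptosis when released, had 27.3 for H2A.Zac and 5.97 for H2A.Z.

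B3GNT4, a glycosyltransferase, had ratios of 23.0 for H2A.Zac and 9.08 for H2A.Z. The neighboring genes P2RX7 and P2RX4 encode ATP-gated cation channels, and both promoters were lost, with H2A.Zac ratios of 22.4 and 14.6 and H2A.Z ratios of 9.95 and 5.55. CABP1, a neuronal calcium-binding protein, had 20.6 and 7.93. BRI3BP, whose promoter is printed above, had 15.8 and 9.68, and POP5, a subunit of ribonuclease P, 12.5 and 4.36. These genes were picked by their H2A.Zac ratio, and values of different marks come from different libraries, so that the marks are not compared at them. At DIABLO, P2RX7, HRK, B3GNT4, CABP1 and BRI3BP at least 1 mark was lost with no unchanged region of that mark within the window, and at P2RX4 and POP5 the window also held unchanged regions of both marks.

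**Figure D3:**
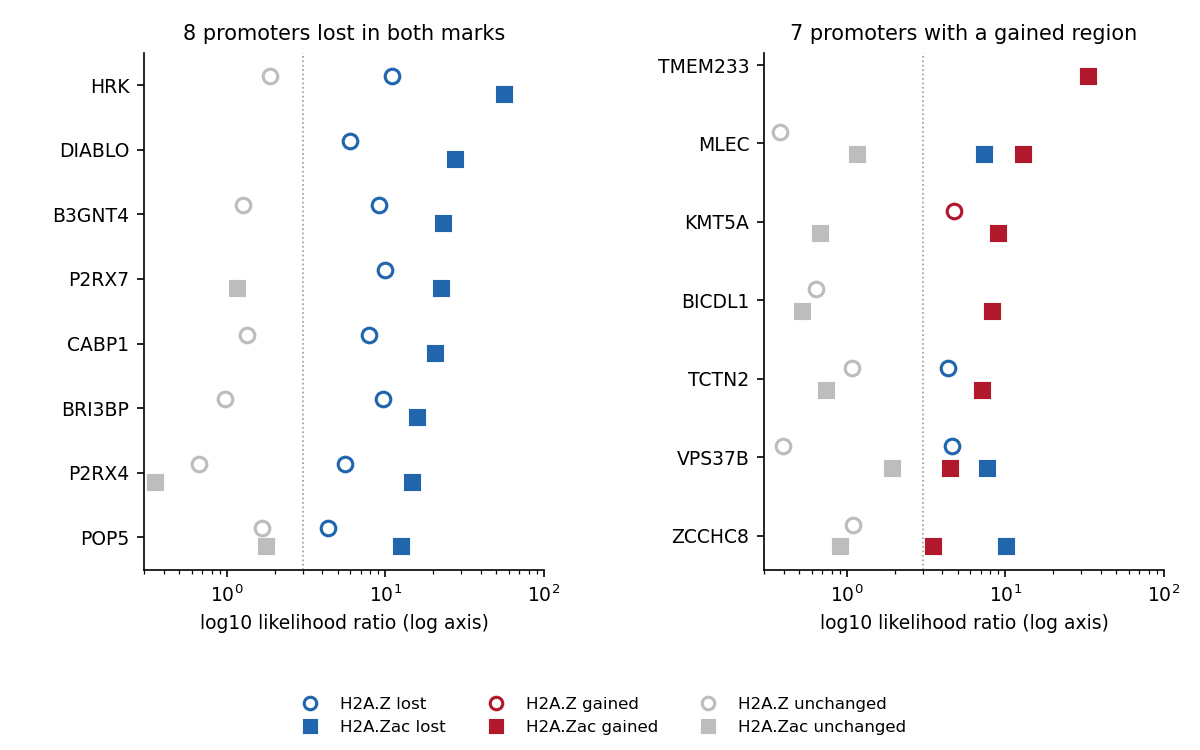
Highest log10 likelihood ratio of each class within 1 kb of the TSS, on a log axis, for 8 genes with a high lost H2A.Zac ratio among those lost in both marks and for the 7 genes with a gained region. Open circles are H2A.Z and filled squares H2A.Zac, colored by class, and the dotted line is the threshold of 3. HRK and TMEM233 have the highest lost (55.9) and gained (33.4) H2A.Zac ratio.

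The promoters with a gained region were few. TMEM233, a small membrane protein, had the highest gained ratio of the stretch, 33.4, in a 2750-bp H2A.Zac region over its first exon (chr12:119592807-119595556). A second gained region, chr12:119591882-119592366, lay 1.65 kb upstream with a ratio of 27.0. Within 1 kb of the TSS the H2A.Z lists held nothing, and the H2A.Zac lists no region of another class.

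KMT5A, the monomethyltransferase of histone H4 lysine 20, was the single gene of the stretch with gained H2A.Z at its TSS. The H2A.Z region, chr12:123383292-123383594, had a ratio of 4.71, and the gained H2A.Zac region, chr12:123383555-123384038, one of 8.97. They adjoin upstream of the TSS and share under 25% of either length, so that they do not count as overlapping. MLEC, a lectin of the endoplasmic reticulum, had gained H2A.Zac 215 bp upstream of the TSS with a ratio of 12.9, beside a lost H2A.Zac region within the same 1-kb window (7.28) and unchanged H2A.Z (0.380). ZCCHC8, a subunit of the nuclear exosome targeting complex, likewise held both directions of H2A.Zac, gained at 3.48 and lost at 10.1. VPS37B, a subunit of the ESCRT-I sorting complex, held gained H2A.Zac at 4.46, lost H2A.Zac at 7.60 and lost H2A.Z at 4.62. At BICDL1, an adaptor of the dynein motor, gained H2A.Zac (8.26) lay 693 bp upstream over unchanged H2A.Z. At TCTN2, a component of the ciliary transition zone, gained H2A.Zac (7.08) lay 504 bp downstream while an H2A.Z region by the same TSS was lost (4.33).

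Away from protein-coding promoters, gained H2A.Zac came mostly as small groups in a few introns and intervals. RFLNA held 5 gained regions over more than 100 kb of its introns (ratios 3.84 to 9.89), among 6 lost H2A.Zac regions. MED13L held 4 in a row in its intron 2 (chr12:116171557-116177629, ratios 4.40 to 9.15), and no lost region other than that at its promoter. PITPNM2 held 3 (4.43 to 5.95). MLXIP, a glucose-responsive transcription factor, held 2 in intron 1 (7.06 and 6.78) and had 2 more 5.52 and 6.09 kb upstream of its TSS. A single gained region with a ratio of 13.8 lay in intron 1 of HSPB8, a small heat shock protein. In the interval between TMEM132B and TMEM132C, chr12:127459929-127460214 (27.7) and chr12:125861152-125861792 (17.1) were gained with no H2A.Z region on them. Another region in ZCCHC8 (3.59) lay 1.83 kb inside its TSS. A further 12 had ratios of 3.25 to 8.73. They include 2 in RHOF, a small GTPase (7.97 and 3.25), and single regions over the first exon of MAP1LC3B2 (8.38), in introns of TMEM120B (3.84), DNAH10 (5.05) and TMEM132B (6.66) and 15.3 kb upstream of AACS (7.36).

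The single distal gain of H2A.Z sat 11.2 kb upstream of HRK, the gene whose promoter lost most. The H2A.Z region, chr12:116892502-116892781, had a ratio of 5.30 and lies whole within a gained H2A.Zac region, chr12:116892486-116893081, with a ratio of 13.4. It is the one place in the stretch where gained regions of both marks overlap by at least 25% of the length. Of the 42 gained H2A.Zac regions, this 1 was on gained as well as unchanged H2A.Z, 9 were on unchanged H2A.Z alone and 0 on lost H2A.Z, and 32 of 42 (76.2%) had less than 25% of their length under any H2A.Z class, beside 42.8% in the rest of the genome. Nothing is read from this difference, since the stretch was chosen for its low share of gained regions, H2A.Z included. Gained H2A.Zac ratios had a median of 6.92, and 8 of 42 reached 10, against a median of 10.1 and 140 of 272 among lost ones.

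**Figure D4:**
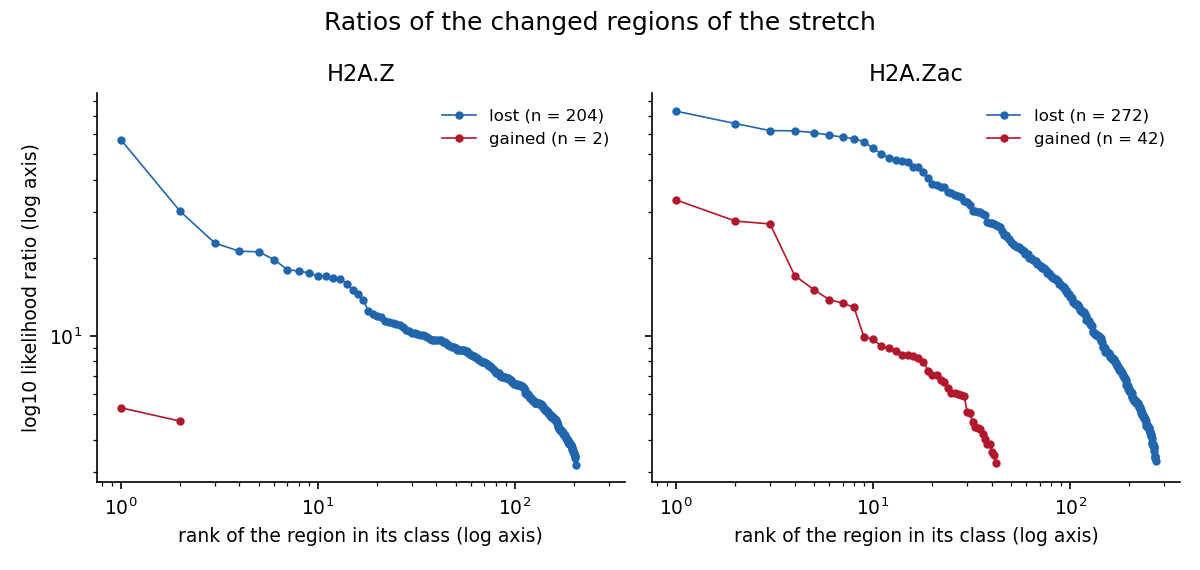
Log10 likelihood ratio of every changed region of the stretch against its rank within its class, both on log axes. Shown are 42 gained (highest 33.4) and 272 lost (highest 73.3) H2A.Zac regions, and 2 gained and 204 lost H2A.Z regions. At a given rank a shorter list lies lower by its count alone, so that the heights of the curves are not compared.

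Over gene bodies with 1 kb to each side, lost regions of both marks were most numerous at VSIG10, an immunoglobulin-domain gene, and SCARB1, the receptor of high-density lipoprotein, with 9 each. At SCARB1 4 H2A.Z and 5 H2A.Zac regions were lost and 0 gained. They lay between 124864457 and 124876227, up to a ratio of 17.5 for H2A.Zac, and the gene had no changed region within 1 kb of its TSS. P2RX7 had 8, of which 7 were H2A.Zac and 1 H2A.Z, with a 4134-bp lost H2A.Zac region in intron 1 (38.0). KDM2B, a lysine demethylase of a Polycomb complex, and BCL7A, a subunit of SWI/SNF complexes, had 8 each. At BCL7A none lay within 1 kb of the TSS, but this holds at the start of the gene record only. Exon 1 of the canonical BCL7A transcript was touched by lost H2A.Zac, and also by unchanged regions of both marks. RFLNA had 8 lost regions, 2 of H2A.Z and 6 of H2A.Zac, beside its 5 gained ones. RNFT2, a RING-finger gene, and TESC, a calcium-binding protein, had 7 each.

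By function, genes were placed in 9 groups, with members counted over those that have a region at the TSS. In chromatin and transcription 6 of 10 genes had lost H2A.Z and 7 of 11 lost H2A.Zac. These include SUDS3, a subunit of SIN3 deacetylase complexes (H2A.Zac 10.9, H2A.Z 5.52), KDM2B (5.07 and 6.52) and SETD1B, a methyltransferase of histone H3 (4.27 and 3.82). MED13L had lost H2A.Zac (10.4) and unchanged H2A.Z, and KMT5A was the gained member. In RNA and translation 5 of 12 genes had lost H2A.Z and 10 of 11 lost H2A.Zac. Examples are POP5 and the RNA helicase DDX55 (10.2 and 3.46), whereas RPLP0, a ribosomal protein, was unchanged in both marks. The splicing factor SRSF9 counts as lost (12.0 and 6.01) by the start of its gene record, but these regions touch canonical exons of DYNLL1. Exon 1 of the canonical SRSF9 transcript was touched by unchanged H2A.Zac (0.720) and unchanged H2A.Z (1.20).

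Lost H2A.Zac was recorded at 4 of 5 cell division genes, at 5 of 7 mitochondrial and metabolic genes and at 6 of 7 genes of the ubiquitin system, and lost H2A.Z at 2 of 6, 3 of 6 and 4 of 8. The metabolic gene COQ5 and the ubiquitin gene WSB2 count as lost in both marks by the start of their gene records only. Exon 1 of their canonical transcripts was touched by unchanged regions only, of H2A.Zac (0.545 and 0.739) and of H2A.Z (0.757 and 0.838). CDK2AP1, an inhibitor of the kinase CDK2, had lost H2A.Zac of 14.5 and unchanged H2A.Z, and CIT, the citron kinase of cytokinesis, had 6.09 for H2A.Zac and 7.96 for H2A.Z. SIRT4, a mitochondrial sirtuin, had the highest lost H2A.Zac ratio of its group (18.2) and unchanged H2A.Z. PSMD9, a chaperone of the proteasome, had 8.62 and unchanged H2A.Z, and RNF10 6.72 and 7.19. All 3 apoptosis genes, HRK, DIABLO and TRIAP1 (4.76 and 3.69), were lost in both marks. Kinases, channels and adhesion genes had lost H2A.Z at 4 of 6 and lost H2A.Zac at 3 of 7, with the kinase CAMKK2 (5.54 and 4.02) next to the P2RX genes, and paxillin (PXN) lost in H2A.Z only (4.21). Membrane traffic genes had 5 of 10 in each mark, among them VPS37B, VPS33A (6.25 and 3.86) and RILPL1 (6.10 and 4.07). These shares stand beside 54.9% and 67.9% over all genes of the stretch, and no group was tested against another.

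**Figure D5:**
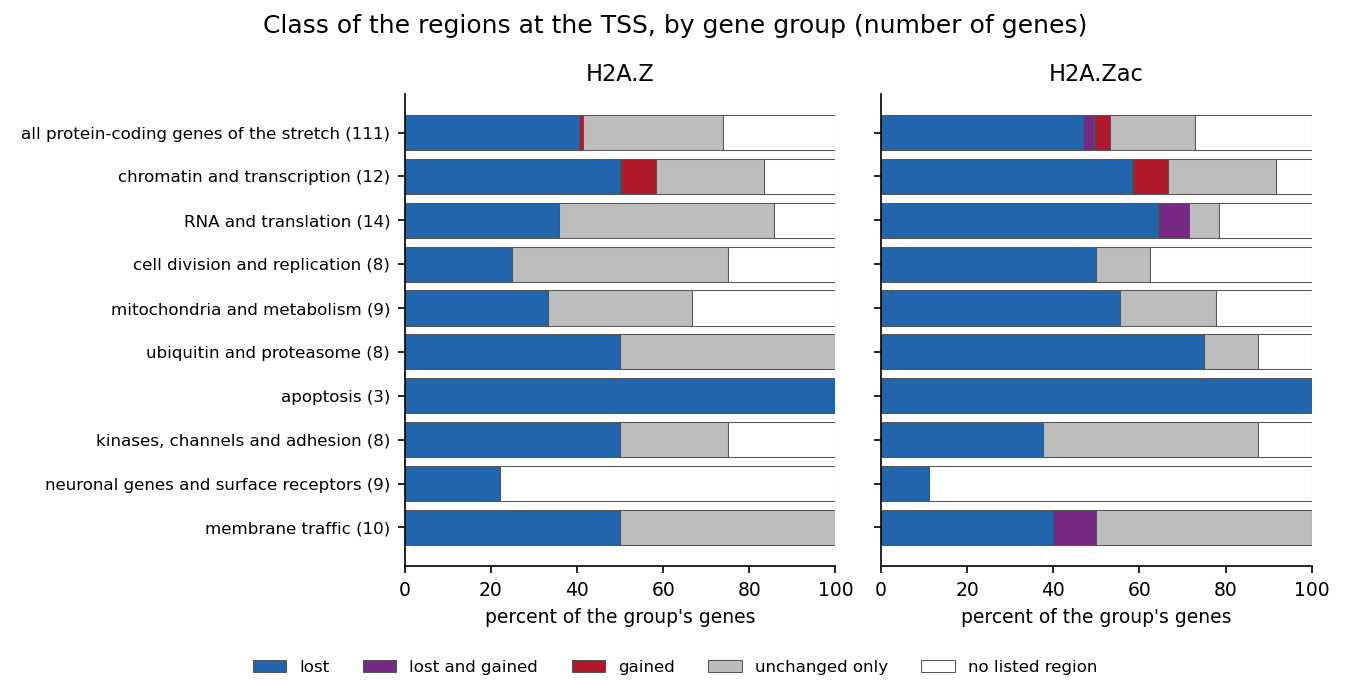
Percent of the genes of each functional group by the class of the regions within 1 kb of their TSS, for H2A.Z and H2A.Zac, with the number of genes in parentheses. Of the 9 neuronal and receptor genes 7 had no listed region of either mark, and all 3 apoptosis genes were lost in both.

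Neuronal genes and surface receptors were mostly outside the lists. Of 9, NOS1, CCDC60, HCAR1, HCAR2, HCAR3, TMEM132C and TMEM132D had no region of either mark at the TSS. The remaining genes, CABP1 and TMEM132B, both had lost H2A.Z (7.93 and 4.47). A gene without a region gives no information on loss, since a region enters a list only where a peak was found in either line.

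At 20 genes the 1-kb window held lost H2A.Zac while its H2A.Z was unchanged. At 12 of them a lost H2A.Zac region had at least 25% of its length under unchanged H2A.Z, and at 8, SIRT4, MED13L, ZCCHC8 and PSMD9 among them, it lay mostly or wholly beside it. SIRT4 (18.2), CDK2AP1 (14.5), MED13L (10.4), ZCCHC8 (10.1) and PSMD9 (8.62) had the highest H2A.Zac ratios among the 20. The reverse, lost H2A.Z without lost H2A.Zac, was seen at 10 genes, among them FBXO21, PXN, HIP1R, TMED2, TCTN2 and TMEM132B. Both marks were unchanged at TAOK3, RAB35, RPLP0, DYNLL1, ACADS, SPPL3, ORAI1, RHOF, MLXIP, OGFOD2 and ATP6V0A2. For RHOF and DYNLL1 this holds at the start of the gene record only. Exon 1 of the canonical RHOF transcript was touched by lost H2A.Zac (29.6) and lost H2A.Z (16.6). Canonical exons of DYNLL1 were touched by lost H2A.Zac (12.0) and lost H2A.Z (6.01). Unchanged promoters thus stood among lost ones along the stretch. RAB35 and RPLP0 flank GCN1, whose H2A.Zac was lost (3.85), and ACADS lies between the promoters of UNC119B (H2A.Z lost, 4.88) and SPPL3.

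Over all regions, 136 of 204 lost H2A.Z regions (66.7%, 59.9 to 72.8%) had at least 25% of their length under lost H2A.Zac, beside 65.9% in the rest of the genome. Of these 136, 26 also had that much of their length under unchanged H2A.Zac. Another 26 lay on unchanged H2A.Zac alone, 0 on gained H2A.Zac and 42 (20.6%) on none, beside 27.0% on none in the rest of the genome. Of the 272 lost H2A.Zac regions, 118 (43.4%) lay on lost H2A.Z, beside 28.5% in the rest of the genome, and 34 of them lay on unchanged H2A.Z as well. A set of 36 lay on unchanged H2A.Z alone and 118 (43.4%) on none, close to the 45.0% on none in the rest of the genome. Of 206 unchanged H2A.Z regions, 73 (35.4%) carried lost H2A.Zac and 7 (3.40%) gained H2A.Zac, where the rest of the genome had 19.5% and 25.2%. Unchanged H2A.Zac regions lay on lost H2A.Z in 40 of 222 cases (18.0%), against 2.65% in the rest of the genome. These overlaps come from the comparison by which the stretch was chosen and are given as a description.

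Genes other than protein-coding ones, pseudogenes included, were counted where their TSS lay over 2 kb from any protein-coding TSS. Of 21 such TSSs with an H2A.Z region within 1 kb, 15 (71.4%) had a lost one, where 20.3% of such TSSs in the genome had one, and 0 a gained one, beside 17.0%. Of 31 with an H2A.Zac region, 19 (61.3%) had a lost one, beside 34.5%, and 5 (16.1%) a gained one, beside 41.3%. Both marks were lost at 12 of them. Nothing is read from the distance to the genome values here either. The microRNA gene MIR4472-2, in the interval between MED13L and MAP1LC3B2, had lost H2A.Zac with a ratio of 30.4. RNU4-2, which encodes a small nuclear RNA of the spliceosome, had lost regions with 19.8 for H2A.Zac and 7.60 for H2A.Z, and LINC00173 had 7.89 and 3.69. Both windows also held unchanged regions of both marks. Unchanged H2A.Zac spanned the TSS of RNU4-2 (0.920) and that of LINC00173 (0.928), the latter also under unchanged H2A.Z (0.593). RNU4-2 and MIR4472-2 have near-identical copies elsewhere in the genome, so that reads over the genes themselves are less certain. The lost H2A.Zac region by RNU4-2 ends at 120291476, short of its TSS at 120291903, and that over MIR4472-2 is 5159 bp wide.

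At the edges, the nearest gene with regions before the stretch is TBX3, a T-box transcription factor, lost in both marks (H2A.Z 6.91, H2A.Zac 26.5), while its neighbor TBX5 had no region. Past the end, FZD10 and PIWIL1 had none at their TSSs. EP400 itself lies on the same arm, with its TSS at 131949942, 1.95 Mb past the end, and its promoter had gained H2A.Z (4.74) and gained H2A.Zac (11.2), the opposite of most of the stretch. The labels give the cell type as lymphoblast. Of 10 erythroid and leukemia-line genes, 9 (all but GATA1) had a listed region of either mark at the TSS, among them KLF1, HBG1 and TFRC, and of 8 lymphoid genes 4 had one (CD3E, CD3D, CD79A and CD2), and PAX5, CD7 and MS4A1 were among those without. Over all 19444 protein-coding genes 64.9% had such a region, and with lists this short neither count is read as a test of the cell type.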

How the data were processed

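H2A.Z and H2A.Zac ChIP-seq was analysed in the WT and ΔTRRAP lines as labelled, with 2 replicates per mark and line. The authors aligned reads to hg38 with Bowtie2 2.4.5, called peaks with MACS2 2.2.7.1, pooled the replicates of a line and ran bdgdiff of MACS2 on the 2 lines at a cutoff of 3, scaled to equal depth, and kept regions with at least 25% of their length (bedops) in peaks that passed an IDR of 0.05 and had been merged over the lines (bedtools 2.30.0). Signal tracks (deepTools 3.5.1) were not used. The score deposited for each region by the authors is the log10 likelihood ratio, 3.10 or more in the lost and gained lists and at most 2.90 in the unchanged lists. It is not a fold change, and 1 peak may be split into several regions.

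The 6 lists were read as they are. Genes came from GENCODE release 44, which is later than that of the study, and 5 unnamed protein-coding records were left out. A region was assigned to a TSS within 1 kb of the start of the gene record, and to the other mark where its union covered 25% of the region. No test across conditions was made, since replicates were merged and depth is unknown. Genes named are the 10 with the highest lost H2A.Zac ratio among those lost in both marks at the TSS, all with gained regions at the TSS and hosts or neighbors of gained regions elsewhere, the 8 with most lost regions, the leading members of each functional group, and the genes at the edges with EP400. Some of the genes that this rule selects, and 1 of the 42 gained H2A.Zac regions, are not reported here. Genes outside this rule, the lost distal windows printed, and the TSSs of genes that are not protein-coding were chosen after their values were seen. The members, gene groups and markers were chosen with earlier results of these data known. Python 3.11.15, numpy 2.4.6, pandas 2.3.3, scipy 1.17.1, samtools 1.23.1 and, as a check of the overlaps, bedtools 2.31.1 were used, and the interval code was tested on simulated regions. Alternatives were cutoffs of 5 and 10, base pairs, merging within 1 kb, other bounds and windows, overlaps of 1 bp and 50%, and TSS windows of 2 kb.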

Additional observations from a re-analysis of the deposited data

How the results depend on the processing

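No paired analysis was possible because the authors merged the replicates before comparing the lines. For the same reason no replicate was left out. Of 44 recomputed values of 12 results, 30 stayed within the interval of the reported share or within 1.5 times the reported count, and in none did gained regions come to outnumber lost ones. With a ratio of at least 5, the lost share of all regions was 36.2% for H2A.Z and 43.1% for H2A.Zac. With a ratio of at least 10 it was 8.50% and 26.1%, the gained share of changed regions was 0 of 35 for H2A.Z (0%) and 5.41% for H2A.Zac, and the genes with lost H2A.Zac at the TSS fell from 55 to 19, those with lost H2A.Z from 45 to 3 and those with gained H2A.Zac from 7 to 2. Gained H2A.Z at a TSS went from 1 gene to 0. In base pairs the gained share of H2A.Zac was 8.44%. The window from 125 to 130 Mb alone gave 0 of 24 for H2A.Z (0%) and 20.7% for H2A.Zac. With an overlap of 50%, 33.8% of lost H2A.Zac regions lay on lost H2A.Z. In the rest of the genome a ratio of at least 10 gave a gained share of 39.7% and 41.1%. A stricter ratio removes regions by construction. Depth is unknown, so the precision of single regions cannot be given.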
